A study of Mus musculus with 12 samples.

Results

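Collagen genes were taken as every gene whose symbol has the form Col, a number, the letter a and a number in the probe annotation. There were 44 of them among 19937 genes with 1 symbol, measured by 46 probes, and where a gene had several probes the brightest on average stood for it. The tissue was olfactory epithelium of male C57BL/6 mice, 48 in all, which had been entrained to a light-dark cycle and then kept in constant darkness. Tissue was collected every 4 h from circadian time (CT) 12 to CT56, and equal amounts of total RNA from 4 mice were pooled at each time and hybridised to 1 Affymetrix array. The 12 pools comprise 6 of subjective night (CT12, CT16, CT20, CT36, CT40 and CT44), the active part of the day in mice, and 6 of subjective day (CT24, CT28, CT32, CT48, CT52 and CT56). The second cycle runs from CT36 to CT56 and the first from CT12 to CT32, so that each of the 6 phases was sampled by 2 pools that lie 24 h apart. Strain, sex and handling were given alike for every pool, and the age of the mice is not given in the sources used here.

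Collagens are secreted or membrane-bound proteins whose chains wind around each other into a stiff helix. Fibrillar collagens pack into the cables of connective tissue, bone and cartilage, whereas type IV collagens join into the sheet that lies under epithelia and around vessels, nerves and muscle fibres. The olfactory epithelium is a layer of sensory neurons and supporting cells that rests on such a sheet, with a connective tissue layer of glands, vessels and axon bundles beneath it and the bone and cartilage of the turbinates below that.

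The values are log2 intensities as deposited, and the number of arrays limits their precision. Each pool stands for 1 time, so p-values measure the spread between pools, some of which may be technical. In pooled bulk tissue, fewer cells of a type and less RNA per cell cannot be told apart. Sensory neuron genes were bright in every pool. Cnga2, a subunit of the odour transduction channel, read 12.32 on the log2 scale in the CT44 pool and 12.44 to 12.84 in the other 11 pools. Levels are compared between pools for 1 probe, never between probes. The collagen probes lay between percentiles 22.4 and 85.5 of brightness over all genes. The SD over the 12 pools had a median of 0.17 on the log2 scale across the 44 genes, with a range of 0.09 to 0.25.

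Most collagen genes moved through the 12 pools together. Of the 44 genes, 31 read highest in the CT36 pool, which is 70.5% of them and compares with 18.5% of all genes. The lowest pool was CT56 for 25 collagen genes (19.5% of all genes) and CT48 for 15 (15.8% of all genes). The centred value, a gene's log2 level minus its own mean, had a median over the collagen genes of 0.24 in CT36, -0.24 in CT48 and -0.27 in CT56. Pools 24 h apart read alike at some phases and apart at others. At phase 0 h, 44 of 44 collagen genes were below their own mean in CT24 (55.6% of all genes), and 43 were below it in both CT24 and CT48 (43.1% of all genes). At phase 4 h, 39 were above it in both CT28 and CT52 (36.7% of all genes). At phase 12 h the cycles differed, with a collagen median of -0.03 in CT12 and 0.24 in CT36. These counts describe the pools and carry no test.

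**Figure D1:**
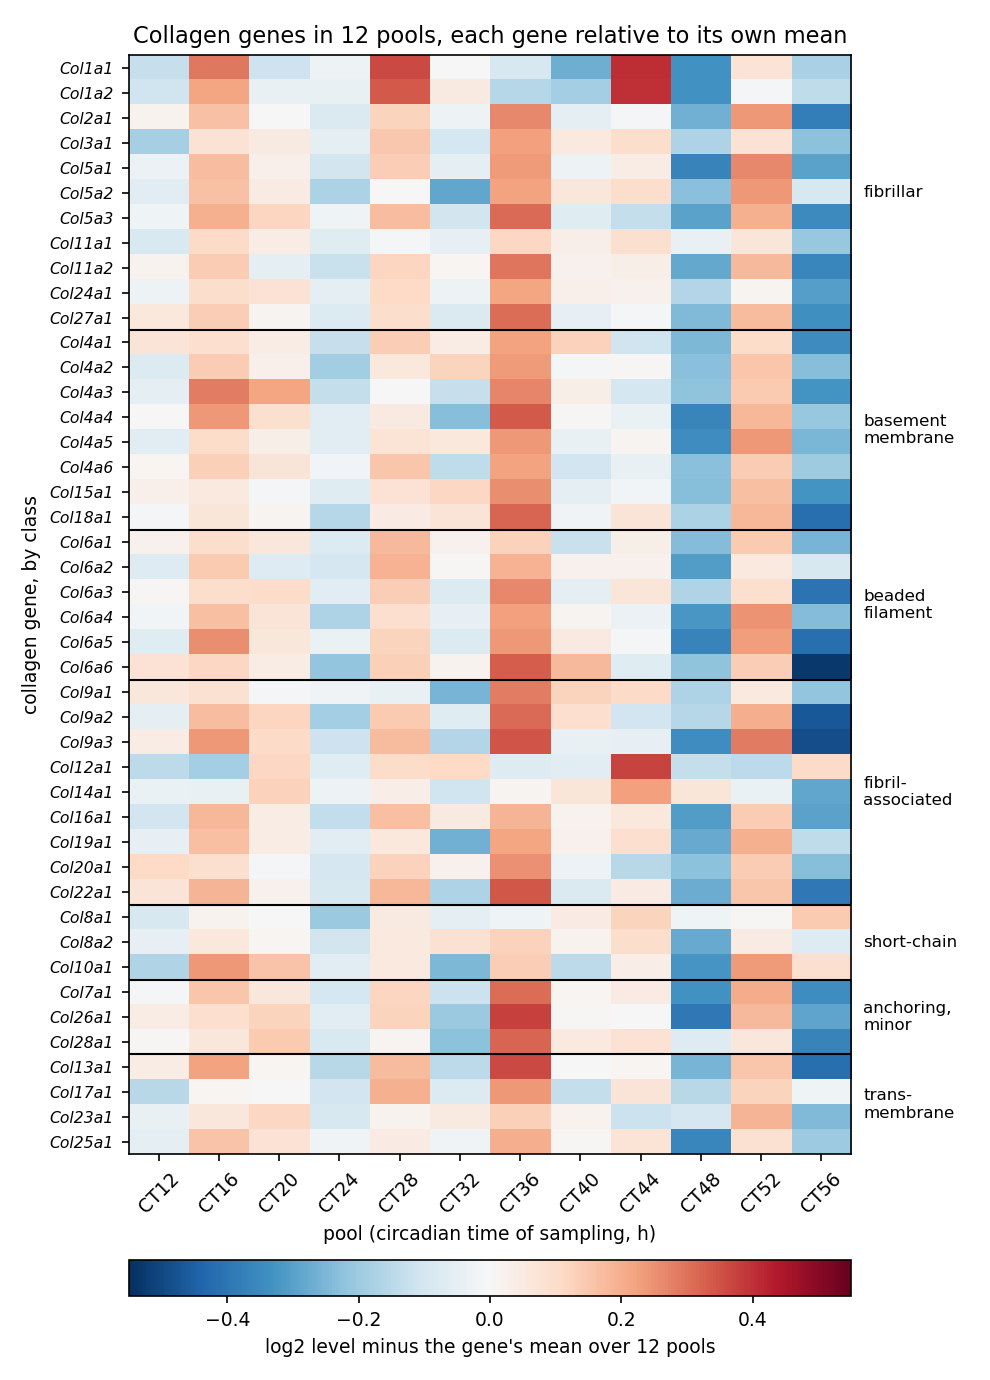
Heat map of the log2 level of each of the 44 collagen genes minus its own mean (colour, blue for below and red for above) in the 12 pools, in order of circadian time, with genes grouped by class. Most rows are red in CT36 and blue in CT48 and CT56, while Col1a1, Col1a2 and Col12a1 are reddest in CT44.

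Col7a1, the chain of the anchoring fibrils that tie stratified epithelia to the tissue below, was closest to this shared course. It read 8.52, 8.69, 8.60, 8.44, 8.65, 8.42, 8.84, 8.55, 8.58, 8.20, 8.74 and 8.19 on the log2 scale from CT12 to CT56. Its highest pool was CT36 and its lowest CT56, and its Pearson r with the mean of the other 43 collagen genes was 0.99 over the 12 pools. In 33 of the 44 genes this r was above 0.8, as it was in 15.0% of all genes (2994 of 19937) against the collagen mean. The 12 points of such a correlation share their arrays, so it is given as a description. All 8 basement membrane genes, all 6 genes of type VI collagen and 8 of the 11 fibrillar genes were above 0.8. None of the 3 short-chain genes was, and their class mean in CT56 was 0.05, where the other classes lay between -0.22 and -0.33.

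The shared course went in part with the spread of intensities on the arrays. The lower quartile of all probes was highest in CT36, at 6.71, and lowest in CT48, at 6.57, and the distance between the quartiles was 2.25 in CT36 and 2.53 in CT48, the extremes of the 12 arrays. Other pools did not keep this order. CT56, with a collagen median of -0.27, had a lower quartile of 6.62 and a quartile distance of 2.46, whereas CT24 had 6.59 and 2.48 and CT32 had 6.59 and 2.52, with collagen medians of -0.08 and -0.05. Genes were split by mean brightness into 4 bins of equal size. The bin second from the dimmest holds 17 of the 44 collagen genes and all its genes together had a median centred value of 0.12 in CT36 and -0.12 in CT48. The next brighter bin holds 24 collagen genes and went the other way, with -0.07 in CT36 and 0.03 in CT48. Marker genes of skeletal muscle, of which 12 of 12 were measured, had a mean centred value of 0.22 in CT36 and -0.25 in CT56, their highest and lowest pools. Of the gene lists followed below, collagen receptors were also highest in CT36, at 0.06, and lowest in CT48, at -0.09. Bone markers without Ibsp, a step chosen after seeing the data, had 0.16 in CT36 and -0.25 in CT48, again their extremes. The remaining lists, and bone markers with Ibsp, were highest in other pools. With quantile normalization 28 collagen genes were highest in CT36 where 31 had been (18.5% of all genes in the deposited values). In the same setting 39 were lowest in CT48 or CT56 where 40 had been (35.2% of all genes in the deposited values). The shares of all genes after quantile normalization are not given here, so these counts have no background of their own. The part of array intensity, or of muscle or any other tissue, in the shared course was not tested.

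A small set of collagen genes did not follow the others. Col12a1, a fibril-associated collagen of tendon and bone surfaces, had an r of -0.10 with the mean of the rest, and Col8a1, a short-chain collagen found in vessel walls, had an r of -0.01. Col14a1, another fibril-associated collagen, had an r of 0.38, Col1a2 of 0.45 and Col1a1 of 0.53. Of these 5 genes, 4 were highest in the CT44 pool, and Col8a1 was highest in CT56 with CT44 next. Between them and the main body lay Col10a1, the collagen of hypertrophic cartilage, at 0.61, and Col17a1, the membrane-spanning collagen of hemidesmosomes, at 0.72.

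**Figure D2:**
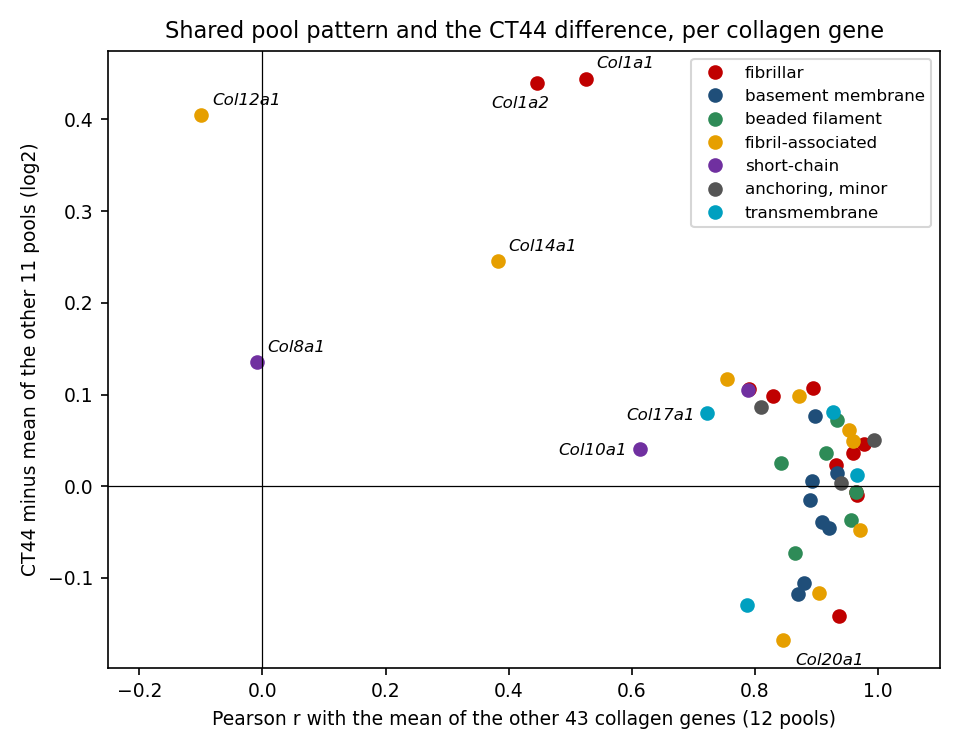
Each point is 1 collagen gene, coloured by class. The x axis is the Pearson r of its 12 pool values with the mean of the other 43 collagen genes, and the y axis is CT44 minus the mean of the other 11 pools on the log2 scale. Most genes lie at the right with differences between -0.17 and 0.12, and Col1a1, Col1a2, Col12a1 and Col14a1 lie above and to the left of them.

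Type I collagen, the chief protein of bone, tendon and skin, is built from the Col1a1 and Col1a2 chains, and these had a course of their own. Col1a1 read 9.62, 10.04, 9.64, 9.72, 10.11, 9.75, 9.66, 9.49, 10.16, 9.42, 9.83 and 9.58 on the log2 scale from CT12 to CT56. Col1a2 read 9.29, 9.62, 9.36, 9.36, 9.73, 9.45, 9.24, 9.21, 9.80, 9.07, 9.39 and 9.26. Both were high in CT16, CT28 and CT44 and lowest in CT48, and in CT36, where most other collagens peaked, their mean centred value was -0.12. These are the only 2 collagen genes in the brightest of the 4 bins, whose genes together also had a median of -0.12 in CT36. In CT44 and CT48 that bin had -0.03 and 0.07, where the type I mean was 0.41 and -0.33. In the CT44 pool Col1a1 read 10.16, against a median of 9.66 and a range of 9.42 to 10.11 in the other 11 pools. Col1a2 read 9.80 in CT44, against a median of 9.36 and a range of 9.07 to 9.73. CT44 was above the mean of the other 11 pools by 0.44 on the log2 scale for each chain, or 1.36-fold, with an SD over those pools of 0.21 for Col1a1 and 0.19 for Col1a2. The next pool, CT28, lay close below CT44 for both chains.

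Col1a1 had no upstream window in the sources used here. The upstream sequence of Col1a2 is shown because this gene and Col1a1 moved as a pair apart from the family. It is the run of 250 bases before the start site in RefSeq (GRCm38.p6, chr6:4505368-4505617, plus strand), with each CCAAT and GGGCGG, searched on both strands, in capitals.
Col1a2: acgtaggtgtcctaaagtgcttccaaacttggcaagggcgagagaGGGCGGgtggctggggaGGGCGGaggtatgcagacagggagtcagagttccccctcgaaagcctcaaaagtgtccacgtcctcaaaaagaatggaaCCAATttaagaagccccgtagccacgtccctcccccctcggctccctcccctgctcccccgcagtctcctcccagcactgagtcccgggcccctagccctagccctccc
The CCAAT match ends 105 bases before the start site, and the GGGCGG matches end 200 and 183 bases before it. Over all 32851 such windows, 33.8% hold CCAAT and 32.7% hold GGGCGG on either strand. Of 38 windows of 35 collagen genes, 13 (34.2%) hold CCAAT and 22 (57.9%) hold GGGCGG. The motifs do not overlap in this window, and a match is a run of letters, not a measured binding site.

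Besides type I, 2 fibril-associated collagens were highest in CT44, which made 4 of 44 genes (9.09%, against 3.84% of all genes). Col12a1 read 8.85 in CT44, against a median of 8.41 and a range of 8.29 to 8.59 in the other 11 pools, a difference from their mean of 0.40 on the log2 scale or 1.32-fold. Col14a1 read 9.11 in CT44, against a median of 8.86 and a range of 8.60 to 9.01, a difference of 0.25 or 1.19-fold. All 4 of these values lay above every other pool. Against CT20 alone, the pool of the same phase 24 h earlier, CT44 was higher by 0.52 for Col1a1, 0.44 for Col1a2, 0.26 for Col12a1 and 0.10 for Col14a1. Col3a1, the collagen found with type I in soft connective tissue, read 8.79 in CT44, against 8.47 to 8.92 in the other pools, and ranked 3 of 12. Over the whole family, 29 of 44 genes were above the mean of the other 11 pools in CT44 (42.5% of all genes), and the median difference was 0.04. The lowest was Col20a1, a fibril-associated collagen, at -0.17. The CT44 pool is 1 array that was singled out with earlier results known, so these values are a description with no test.

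**Figure D3:**
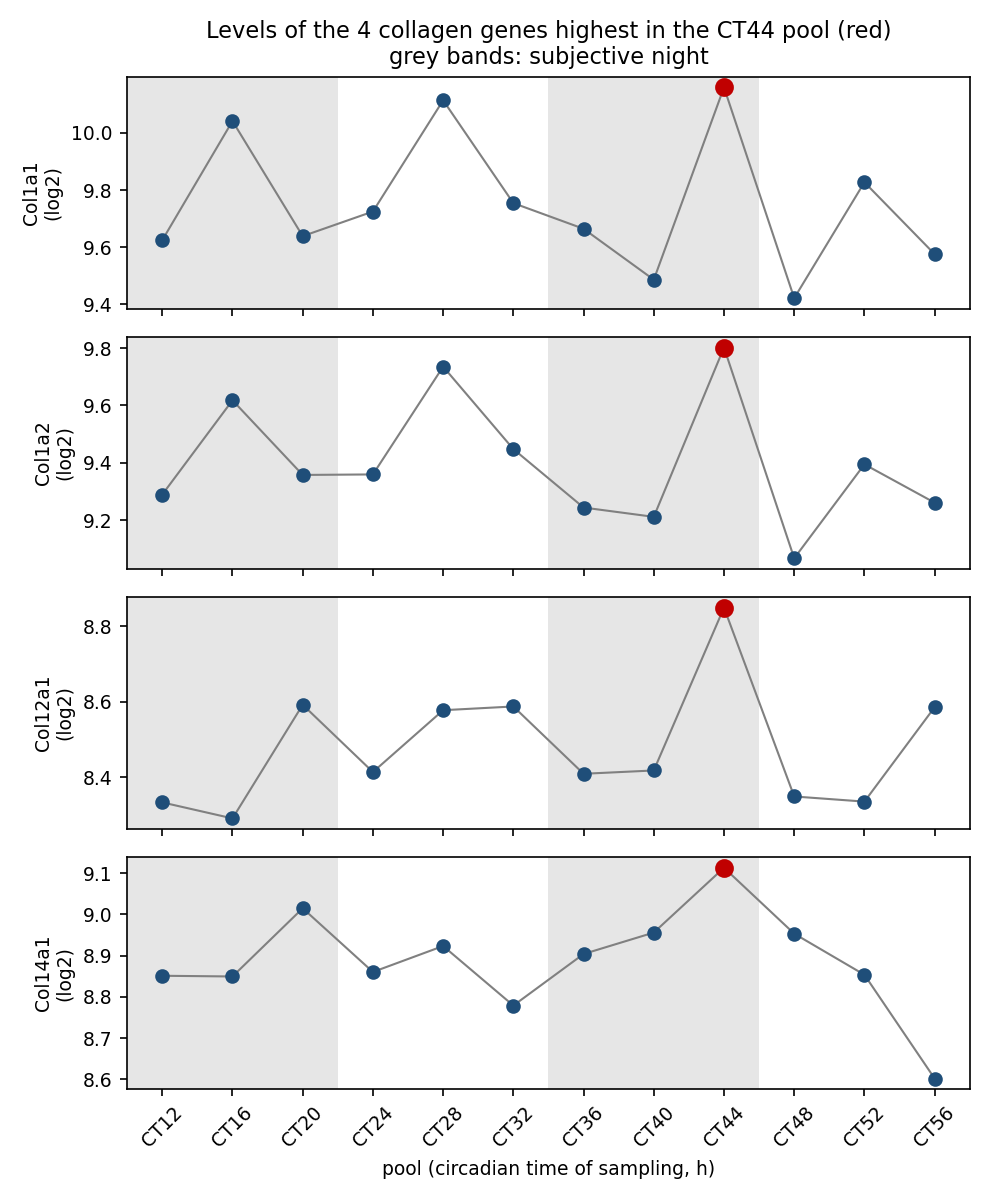
Log2 level (y axis) of Col1a1, Col1a2, Col12a1 and Col14a1 in the 12 pools (x axis, circadian time), with CT44 in red and subjective night shaded grey. Each point is 1 pool of 4 mice and lines only join neighbouring times. CT44 is the highest point in each panel, at 10.16, 9.80, 8.85 and 9.11, and Col1a1 and Col1a2 are also high in CT16 and CT28.

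Fibrillar and basement membrane collagens were set side by side by the mean centred value of each class in each pool, and they ran nearly in parallel. The fibrillar mean of 11 genes was 0.18 in CT36, -0.25 in CT48 and -0.26 in CT56. The basement membrane mean of 8 genes was 0.26 in CT36, -0.25 in CT48 and -0.29 in CT56. The difference, fibrillar minus basement membrane, was largest in CT44, at 0.12, and lowest in CT36, at -0.09. In the CT44 pool the fibrillar mean was 0.10 and the basement membrane mean -0.03. Without Col1a1 and Col1a2 the CT44 difference was 0.05, and the mean of those 2 genes alone stood 0.43 above basement membrane in CT44 and read -0.38 against it in CT36. The 9 other fibrillar genes had class means of 0.24 in CT36 and 0.03 in CT44. No fibrillar gene outside type I was highest in CT44 (3.84% of all genes). Of these 9 genes 7 were highest in CT36, as were 7 of the 8 basement membrane genes (18.5% of all genes). The classes were compared as a description, with no test.

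**Figure D4:**
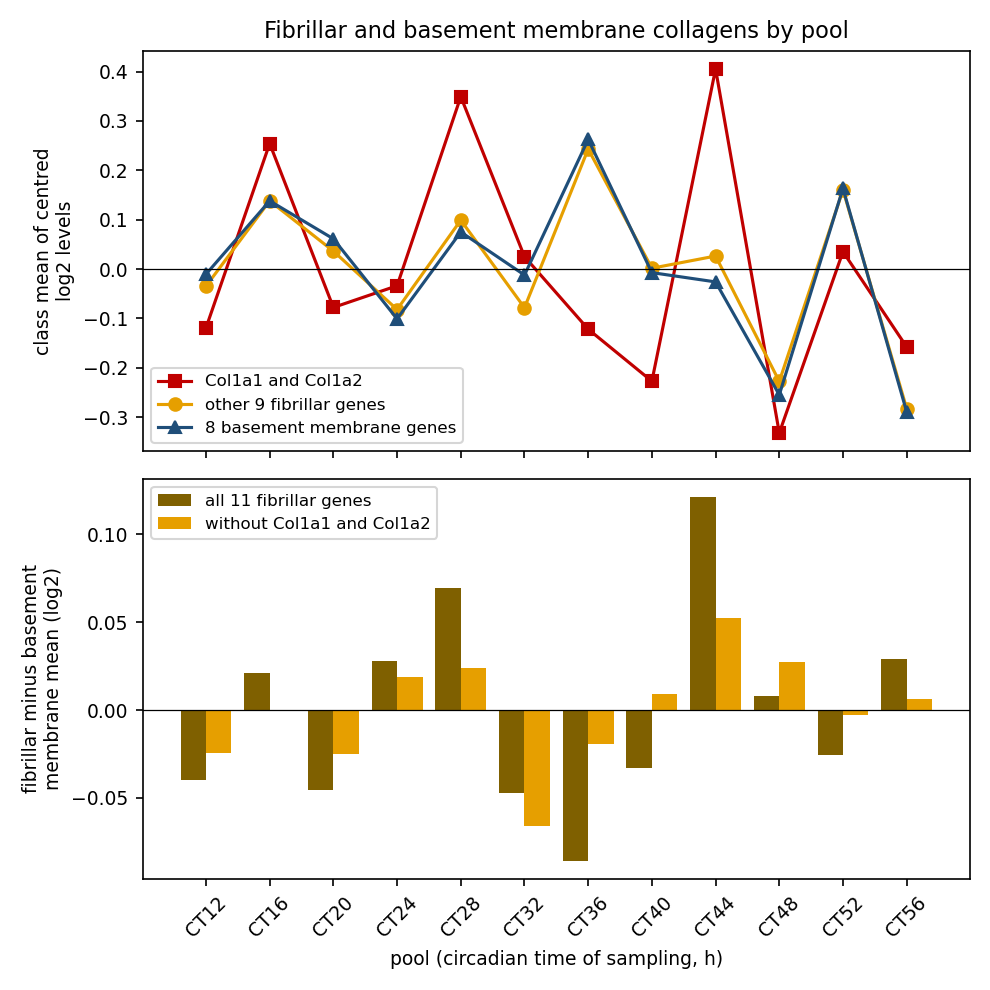
Upper panel, mean centred log2 level in each pool of Col1a1 and Col1a2 (red squares), the other 9 fibrillar genes (orange circles) and the 8 basement membrane genes (blue triangles). Lower panel, fibrillar minus basement membrane mean with (brown) and without (orange) Col1a1 and Col1a2. The orange and blue lines nearly coincide, and the tallest brown bar is CT44 at 0.12, against 0.05 without type I.

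Among the fibrillar genes outside type I, Col5a1, whose chain helps to start type I fibrils, followed the family with an r of 0.98. Col2a1, the chief collagen of cartilage, had an r of 0.97, with 8.63 in CT36, 8.35 in CT44 and 7.98 in CT56. Col11a2, a chain of the cartilage collagen type XI, had 8.73 in CT36, 8.47 in CT44 and 8.07 in CT56. Its partner Col11a1 moved least of the fibrillar genes, with an SD over the pools of 0.09. Col5a3, another type V chain, had the lowest CT44 difference of the class, at -0.14. Col27a1, a minor fibrillar collagen of cartilage, and Col24a1, another minor fibrillar collagen, had r values of 0.96 and 0.93.

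The 6 type IV chains, Col4a1 to Col4a6, build the basement membrane sheet. All 6 were lowest in CT48 or CT56, and 5 were highest in CT36. Col4a1, with Col4a2 the common chain of most basement membranes, read 8.48 in CT36, 8.15 in CT44 and 7.91 in CT56. Col4a3 and Col4a4, chains of specialised basement membranes such as that of the kidney filter, read 8.01 and 8.31 in CT36. Col4a3 was unusual in the class in that CT16, at 8.02, came just above CT36. The other basement membrane genes, Col15a1 and Col18a1 (which yields the fragment endostatin), were both highest in CT36, at 8.01 and 8.73, and lowest in CT56, at 7.42 and 7.99. In CT44, 3 of the 8 genes were above the mean of the other pools (42.5% of all genes). The differences of the 8 genes ran from -0.12 to 0.08.

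Type VI collagen forms beaded filaments around cells. Its 6 genes had r values of 0.84 to 0.96, and all were lowest in CT48 or CT56. Col6a6 had the widest swing of the class, with 8.87 in CT36 and 8.01 in CT56. 2 members of this class had a second, dimmer probe. The second probe of Col6a6 had an r of 0.86 with the first and the same extreme pools, CT36 and CT56. That of Col6a5 had an r of 0.76 and was highest in CT44, whereas the probe used here read 7.95 in CT44 and was highest in CT16, at 8.22.

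The fibril-associated collagens sit on the surface of fibrils. Type IX collagen coats cartilage fibrils, and its 3 chains differed in how far they swung. Col9a3 had the largest SD of all 44 genes, 0.25, with 8.86 in CT36 and 8.03 in CT56, and Col9a2 had 9.03 in CT36 and 8.25 in CT56. Col9a1 had an SD of 0.16, below the median of the family. Col16a1, Col19a1, Col20a1 and Col22a1, the last a collagen of tissue junctions, had r values of 0.95, 0.87, 0.85 and 0.96. Of the membrane-spanning collagens, Col13a1, Col23a1 and Col25a1 had r values of 0.97, 0.79 and 0.93. Col26a1, a minor collagen, and Col28a1, a minor collagen of peripheral nerve, were highest in CT36, at 9.22 and 7.86.

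The difference between the active and the resting part of the day was fitted for each gene with limma. No collagen gene passed an adjusted p of 0.05 (0 of 44, background 0.0%), and 8 of 44 had an unadjusted p under 0.05 (background 9.86%). All 8 were higher at night (background 4.17%) and none lower (background 5.69%). At any p, all 44 collagen genes had a positive night minus day estimate, against 48.5% of all genes, and 0 had a negative one, against 51.5%, with a median of 0.14 on the log2 scale in the collagen genes and -0.00 over all genes. Night and day pools overlapped in every collagen gene, and they did so in all but 0.231% of all genes. Col9a1, a type IX chain, had the smallest p. It ran from 8.68 through a median of 8.79 to 8.97 at night and from 8.43 through 8.58 to 8.74 by day. Its difference was 0.22 ± 0.07 (SE, 6 pools against 6) with an adjusted p of 0.497 by limma. Col28a1 had a difference of 0.22 ± 0.08, Col4a3 of 0.22 ± 0.09 and Col4a4 of 0.21 ± 0.09, with the same adjusted p. The other 4 were Col5a2 (a type V chain), Col6a6, Col13a1 and Col26a1. By contrast Col1a1 had 0.03 ± 0.12 and Col12a1 0.01 ± 0.09. These estimates leaned on few pools. Without CT36, CT48 and CT56 together, which was chosen after seeing the data, 25 of 44 genes were higher at night and the median was 0.01. The count at an unadjusted p under 0.05 was 2 without CT16, CT36, CT48 or CT56 (4.45% to 6.63% of all genes), 3 without CT20 (8.68%), 4 without CT24 (7.73%) or CT32 (6.02%), 17 without CT28 (15.4%) and 22 without CT52 (20.9%). With array weights it was 24, where the share of all genes was 23.9%.

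**Figure D5:**
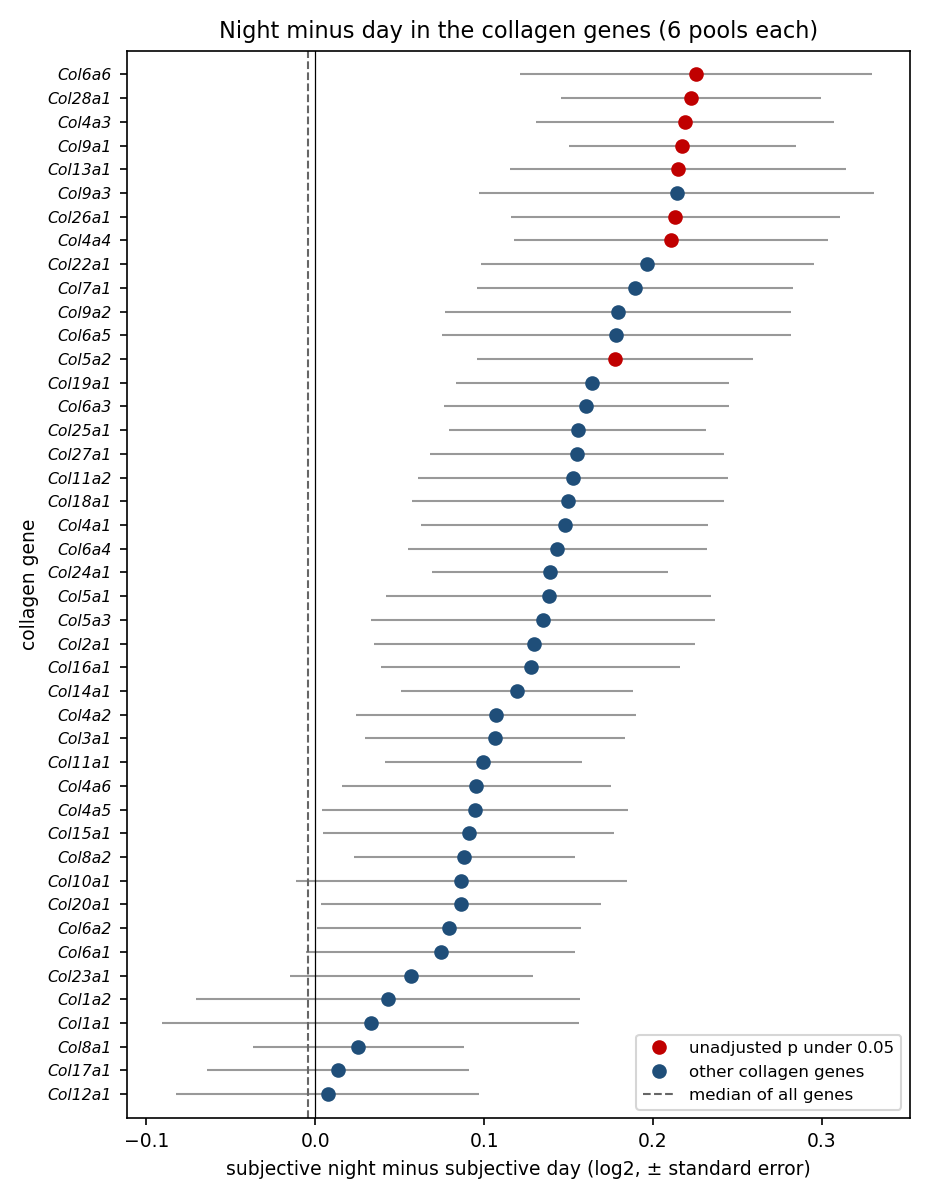
Subjective night minus subjective day on the log2 scale (x axis) for the 44 collagen genes (y axis), with bars of ± 1 standard error from limma and 6 pools on each side. Points in red have an unadjusted p under 0.05. All points lie above 0, from 0.01 for Col12a1 to 0.23 for Col6a6, and none passes after adjustment.

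A 24 h rhythm, a cosine over the 12 pools, was also fitted. None of the 44 genes passed an adjusted p of 0.05 (0 of 44, background 0.0251%), and 1 had an unadjusted p under 0.05 (background 3.54%). That gene was Col14a1, with an amplitude of 0.13 ± 0.04 on the log2 scale (SE), a fitted maximum at CT 20.1 and a limma p of 0.996 after adjustment. Its highest pools were CT44 at 9.11 and CT20 at 9.01, 24 h apart, and its lowest was CT56 at 8.60. By limma, 0 of 44 collagen genes had an unadjusted p under 0.05 without CT20 (3.87% of all genes) or without CT44 (3.5%), and 3 did without CT52 (6.12%) or without CT56 (5.72%). The median amplitude was 0.07 in the collagen genes and 0.06 over all genes.

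Later time in darkness was compared as the second minus the first cycle, with phase as a factor. None of the collagen genes passed an adjusted p of 0.05 (0 of 44, background 0.0%), and 0 of 44 had an unadjusted p under 0.05 by limma (background 13.2%, of which 4.22% higher and 8.94% lower). The estimate was negative in 33 of 44 genes (61.7% of all genes), with a median of -0.05 in the collagen genes and -0.03 over all genes. Col8a1 had the smallest p. It averaged 9.19 ± 0.07 in the second cycle and 9.10 ± 0.09 in the first (SD, n = 6 pools each), and its difference of 0.09 ± 0.05 (SE) had an adjusted p of 0.474 by limma. Without CT12 or without CT36, which give the same estimates in this fit, 8 collagen genes had an unadjusted p under 0.05, where 19.8% of all genes did, and without CT20 or CT44 there were 2, where 7.95% of all genes did.

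Chains that join in 1 molecule were compared by their correlation over the 12 pools, in 11 pairs. Col1a1 and Col1a2 had a Pearson r of 0.98 and a Spearman rho of 0.95, each with a permutation p of 1e-05, the smallest that 100000 permutations can give. Of the 11 pairs, 10 passed an adjusted p of 0.05 for r. The exception was Col8a1 with Col8a2, its partner in type VIII collagen, with an r of 0.27 (rho 0.20) and an adjusted permutation p of 0.383. Partners were not set apart from other collagens by r alone, since the median r over all 946 pairs of members was 0.79. After the mean of the other 42 members was subtracted in each pool, a step chosen after seeing the data, Col1a1 and Col1a2 had an r of 0.97. Col8a1 with Col8a2 then had an r of 0.75, higher than before, and Col4a3 with Col4a4 of 0.58. The remaining pairs lay between -0.41 and 0.36. Over all 946 pairs, with the pool mean of the members subtracted, r had a median of -0.01 and ran from -0.90 to 0.96. The same subtracted values enter both chains of a pair, so these r values carry no test. For Col1a1 and Col1a2, r was 0.95 without CT28 and CT44, the 2 pools farthest from the median of Col1a1, and 0.98 within each cycle, with an exact permutation p adjusted to 0.0153 over the 11 pairs in either cycle (n = 6 pools). For Col8a1 and Col8a2, r was 0.16 in the second cycle and 0.83 in the first, neither past an adjusted exact permutation p of 0.05.

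Some type IV chain genes lie head to head in pairs. Col4a3 and Col4a4, whose r values are given above, were not placed in this way, because Col4a3 had no upstream window here. RefSeq places the start sites of Col4a1 (minus strand) and Col4a2 (plus strand) 21 bases apart on chromosome 8, and those of Col4a6 (minus strand) and Col4a5 (plus strand) 1343 bases apart on chromosome X. The first pair overlaps at its starts, since Col4a1 starts at 11312826 and Col4a2 at 11312805, whereas the second pair does not overlap. Col4a1 and Col4a2 had an r of 0.85 and a rho of 0.76 (adjusted permutation p of 0.00099 for r). Their r was 0.70 without CT48 and CT56, the pools farthest from the median, and 0.92 in the second cycle and 0.74 in the first. Col4a5 and Col4a6 also had an r of 0.85, with a rho of 0.81 (adjusted permutation p of 0.000852 for r). Their r was 0.71 without CT48 and CT56, and 0.97 in the second cycle and 0.37 in the first. The median r over all 946 pairs of members was 0.79, so these p-values do not set head-to-head pairs apart from other collagen pairs. After the mean of the other members was subtracted, r was 0.36 for Col4a1 with Col4a2 and -0.08 for Col4a5 with Col4a6. The upstream windows of Col4a5 and Col4a6 are shown because they face each other. They are 250 bases each in GRCm38.p6, chrX:141475169-141475418 (plus strand) and chrX:141474077-141474326 (minus strand), 5′ to 3′ on the gene's strand, with CCAAT and GGGCGG on either strand in capitals.
Col4a5: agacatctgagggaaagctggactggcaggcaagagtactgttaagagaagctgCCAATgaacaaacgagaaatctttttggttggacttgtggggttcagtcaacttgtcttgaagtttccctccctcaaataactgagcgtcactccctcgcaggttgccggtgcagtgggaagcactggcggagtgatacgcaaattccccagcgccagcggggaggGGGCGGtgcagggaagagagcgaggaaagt
Col4a6: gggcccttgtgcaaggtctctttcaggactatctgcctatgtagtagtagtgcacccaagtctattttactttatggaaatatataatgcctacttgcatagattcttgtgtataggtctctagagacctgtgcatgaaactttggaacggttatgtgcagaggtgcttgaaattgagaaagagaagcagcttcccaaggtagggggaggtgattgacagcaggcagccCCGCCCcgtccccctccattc
The Col4a5 window holds CCAAT ending 192 bases and GGGCGG ending 25 bases before its start site. The Col4a6 window holds no CCAAT, and its GGGCGG lies on the opposite strand (read as CCGCCC), ending 16 bases before its start site.

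Other genes of collagen biology were followed as 6 lists with 74 measured genes. In limma's fits of rhythm, night minus day and cycle, 0 of the 74 reached an adjusted p of 0.05. At an unadjusted p under 0.05 there were 4 of 74 for the rhythm (3.54% of all genes), 1 for night minus day (9.86%) and 7 for the cycle (13.2%), and 36 of 74 were higher at night (48.5%). Itga2, a collagen-binding integrin chain, had the clearest rhythm, with an amplitude of 0.22 ± 0.05 (SE) and an adjusted p of 0.78. Ddr1, a collagen-binding receptor kinase, was the 1 gene for night minus day, at -0.17 ± 0.06 (SE) with an adjusted p of 0.497. Over the same fit the median night minus day was -0.00 in these 74 genes and 0.14 in the collagen genes.

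In the CT44 pool, proteins that coat or bind fibrils read high with type I. Their list had a mean centred value of 0.32 in CT44, against -0.18 to 0.12 in the other 11 pools. Of its genes, 9 of 13 were highest there (3.84% of all genes). Lum (lumican), a proteoglycan of fibrils, read 9.13 in CT44, against a median of 7.96 and a range of 7.45 to 8.90. Omd (osteomodulin) and Ogn (osteoglycin), proteoglycans of the same family, read 7.90 and 10.14 in CT44, against 6.55 to 7.81 and 9.01 to 9.96 in the others. For Lum, Omd and Ogn the next highest pool was CT56, where the type I mean centred value was -0.16. Their r with type I was 0.26, 0.01 and -0.15. Omd was also the gene with the smallest p of these lists between cycles, at 0.53 ± 0.06 (SE) with an adjusted p of 0.0723 by limma. The list of collagen-cutting enzymes and their inhibitors had 0.28 in CT44, against -0.14 to 0.15. In it, 10 of 11 genes were above the other pools' mean (42.5% of all genes). Mmp13, a collagenase, read 8.44 in CT44, against 6.85 to 7.89, and Ctsk, the collagen-cutting protease of osteoclasts, read 8.64, against 7.78 to 8.18. Processing and crosslinking enzymes had 0.12 in CT44, against -0.10 to 0.07, with 4 of 10 highest there (3.84% of all genes). Lox, which crosslinks collagen, read 8.06, against 7.28 to 7.90.

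The other lists had CT44 means inside the range of the other 11 pools. Chain-modifying enzymes and chaperones had a mean of 0.01 in CT44, against -0.06 to 0.09. Of these, 1 of 18, Sparc, was highest there (3.84% of all genes). Sparc, a collagen-binding protein abundant in bone, read 11.52 in CT44, against at most 11.51 in the other pools. Collagen receptors had 0.03, against -0.09 to 0.06, and basement membrane partners such as laminins had 0.01, against -0.06 to 0.09.

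The genes most like type I over the 12 pools were listed by r with the mean of Col1a1 and Col1a2, a list made after the values were seen. Of 19935 other genes, 13 were above 0.8 (0.0652%), and none of the 42 other collagen genes was, with a highest r of 0.65 for Col6a1. The 13 include Mmp9, a gelatinase made by osteoclasts among other cells, at 0.89, Sparc at 0.83 and Acp5, the acid phosphatase that marks osteoclasts, at 0.83. Acp5 read 8.82 in CT44, against a median of 8.05 and a range of 7.80 to 8.54. Mmp9 read 8.13 in CT44, against a median of 7.66 and a range of 7.42 to 8.01. Below that level Alpl, an alkaline phosphatase of bone-forming cells, had an r of 0.80, Mmp13 of 0.79 and Ctsk of 0.75. Other genes of the same lists were lower, with 0.17 for Ifitm5 and 0.26 for Dmp1, both markers of bone cells, and -0.02 for Fap, a protease of activated fibroblasts. The 8 bone markers had a median r of 0.48, and 0 of 8 were above 0.8. The highest r values belonged to Hmgn1, a nucleosome-binding protein, at 0.93, and Cebpa, a transcription factor, at 0.92. The rest of the 13, at 0.81 to 0.88, were Dkk3, Psmb8, Slco1b2, Tmem120a, Olfr1213, Ccr8, Gal3st4 and Sh2d4a. Of the 13 only Sparc and Mmp9 belong to the lists followed here, which include none for osteoclasts. The 12 points share their arrays, and these correlations are a description.

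Of 11 lists of cell type markers, 5 had a CT44 mean above that of every other pool. For the counts below, 3.84% of all genes were highest in CT44 and 18.5% in CT36. In CT44, 42.5% of all genes were above the mean of the other 11 pools. Bone markers, 8 measured, had a mean centred value of 0.21 in CT44, against -0.27 to 0.15 in the other 11 pools, and 4 of 8 were highest there. Ibsp, bone sialoprotein, read 8.21 in CT44, against 6.67 to 7.35. The median CT44 difference of the list was 0.08, and without Ibsp, a step chosen after seeing the data, the other 7 had a mean of 0.09 in CT44, against -0.25 to 0.16, with CT36 highest. Fibroblast markers, 10 measured and sharing Lum, Dcn and Dpt with the fibril list, had 0.22, against -0.12 to 0.08. Gland markers, 11 measured, had 1.38, against -0.85 to 1.06, and Bpifb9b, a secreted BPI-fold protein, read 13.12, against 5.93 to 11.60. Endothelial markers had 0.13, against -0.09 to 0.09, with 4 of 10 highest in CT44. Cartilage markers had 0.11, against -0.17 to 0.09, a narrow margin, with 1 of 11 highest in CT44 and 3 in CT36. Of the fibroblast markers 4 of 10 were highest in CT44, and of the gland markers 3 of 11. Markers of sensory neurons had -0.13, against -0.13 to 0.12, with 2 of 11 above the other pools' mean, and markers of sustentacular cells, the supporting cells, had -0.07, against -0.13 to 0.09. Glial markers had 0.07 in CT44, against -0.11 to 0.07, and mural cell markers 0.04, against -0.17 to 0.10. Horizontal basal cell markers had 0.06, against -0.09 to 0.15, and muscle markers -0.02, against -0.25 to 0.22. The part of any of these cell types in the type I values was not tested.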

How the data were processed

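The data comprise 12 arrays, 1 for each pool of 4 mice. Per the labels' protocols, Trizol-extracted total RNA was copied with random primers into whole-transcript target, which was biotin-labelled for Affymetrix arrays. The tool affy is named, without a version, per the submitters' processing notes. The background correction, normalization and summarisation used by the authors were not given in the sources used here. Values deposited as numbers between 3.48 and 14.47 were taken to be log2 intensities: a 16-bit scanner reaches 11.09 on the natural log scale and 16 on the log2 scale. Array medians lie between 7.81 and 7.92. No filter or floor was set.

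Of 34760 probes, 21640 have 1 gene symbol, 1321 have several and 11799 are not listed, and 19937 genes were left with the highest-mean probe each. Probes carry no coordinates here. Upstream sequences and start sites are from RefSeq (GRCm38.p6). Of the 44 collagen genes, 35 matched an upstream window.

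Fits used limma 3.58.1 in R 4.3.3 (the package data.table, version 1.17.8) over all 19937 genes: a 24 h cosine and sine (moderated F test), night minus day, and second minus first cycle with phase as a factor, each with Benjamini-Hochberg adjustment over all genes and a threshold of 0.05. Chain pairs were tested two-sided with 100000 permutations in Python 3.11.15 (numpy 2.4.6, scipy 1.17.1), or exactly within a cycle, and adjusted over 11 pairs. The scripts were tested on simulated data. Alternatives were quantile normalization, median centring, a brightness filter at percentile 25, the mean of all probes, array weights, a block for cycle, other reference pools and leaving out each pool. The genes named are all collagen genes and, from each of 17 lists (6 of collagen biology and 11 of cell type markers), the gene with the smallest p per fit and at most 3 with the largest CT44 difference, with a few named after their values were seen. The members, classes and lists were chosen with earlier results of these data known.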

Additional observations from a re-analysis of the deposited data

Results flagged for a closer look

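Each gene and class mean was screened for a pool that stands far from its nearest neighbour among the 6 pools of night, of day, or of either cycle. The measure is the gap to the nearest pool as a share of the whole range, and the level used is the one that about 1 in 20 groups passes by chance. Of 204 groups screened 8 passed, where chance gives about 10.2. The CT36 pool stood high among the night pools for Col18a1 (ratio 0.739, with 8.73 in CT36 and 8.48 in the nearest pool), for Col26a1 (0.677, with 9.22 and 8.97), for Col15a1 (0.664, with 8.01 and 7.80) and for the mean of the anchoring and minor genes (0.699, with centred values of 0.33 and 0.11). The CT24 pool stood low in the first cycle for Col6a6 (0.68, with 8.32 and 8.56), for Col18a1 (0.668, with 8.25 in CT24 and 8.40 in the nearest pool) and for Col4a1 (0.635, with 8.13 and 8.30). The CT32 pool stood low in the first cycle for Col9a1 (0.636, with 8.43 and 8.65). Neither type I chain was among them.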

How the results depend on the processing

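No alternative brought a collagen gene past an adjusted p of 0.05 in any of the limma fits. Of 413 alternative values, 360 kept their direction and side of the threshold or stayed within the spread, 36 moved, 9 reversed and 8 lost a call.

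With array weights the counts at an unadjusted p under 0.05 were 2 for the rhythm (7.14% of all genes), 24 for night minus day (23.9%) and 1 for the cycle (21.2%). Leaving out 1 pool gave 0 to 3 for the rhythm (2.47% to 6.12% of all genes), 2 to 22 for night minus day (4.45% to 20.9%) and 0 to 8 for the cycle (7.1% to 19.8%). The number of genes higher at night was 40 to 44 without 1 pool and 25 without CT36, CT48 and CT56 together, and its median was 0.093 to 0.187 and 0.0088. Genes lower in the second cycle were 24 to 39, with a median of -0.114 to -0.0066. Night minus day reversed for Col1a1 without CT16 (-0.0216), CT44 (-0.0452) or CT48 (-0.0301), and for Col1a2 without CT44 (-0.0335) or CT48 (-0.0192), and reached 0.1086 and 0.1145 without CT28. The cause was not tested.

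Pools of 1 cycle share a replicate number, which the labels tie to no batch. Their deviations from the phase means correlated at -0.38 to 0.37, with 8 of 15 pairs over 0.1, and 8 of 12 pools correlated best with 1 of their own cycle. The 2 pools of a phase deviate by equal and opposite amounts. The 12 pools therefore give only 6 separate outcomes, and the count cannot show whether a cycle was a batch. With the replicate block (cycle) night minus day had 5 genes at an unadjusted p under 0.05 (10.2% of all genes), and no adjusted call changed.

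Fibrillar minus basement membrane in CT44 was 0.0523 without Col1a1 and Col1a2, and its range over pools was 0.16 without CT44. Chain pairs past the threshold were 4 in the first cycle. Subtracting the mean of the other 42 members, which carries no test, reversed Col11a1 with Col11a2 (-0.4136), Col4a5 with Col4a6 (-0.0766), Col9a1 with Col9a2 (-0.0905) and Col9a1 with Col9a3 (-0.1246). The alternatives for the pool pattern, that subtraction, the removal of type I, the removal of Ibsp from the bone markers and the joint removal of 3 pools were chosen after seeing the data. Without Ibsp the bone marker mean in CT44 was 0.09. Background levels were not measured here, and collagen probes lay as low as percentile 22.4 of brightness.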
